A study of Mus musculus with 8 samples.

Results

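The genes described here are 34 genes of sterol and fatty acid synthesis and of its control by the sterol regulatory element-binding proteins (SREBPs). They were picked by symbol, and all 34 were found by Ensembl identifier among the 55359 genes with a normalized count, and all of them averaged 10 normalized counts or more over the samples, as did the 16309 genes that entered the tests. Results of these data were known when the list was made. Scd1, Fads2 and Insig1 were known to be among the genes with the largest falls after efferocytosis alone. For the 34 genes, the comparison of efferocytic with naïve macrophages (Mϕ) without stimulation is therefore given as a description without p-values. Its counts of calls are part of that description. By role, 5 of the 34 encode the SREBPs and their regulators, 8 belong to the mevalonate arm, 11 to the sterol arm that follows it, 9 to the fatty acid arm, and 1 encodes a sterol transport protein.

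The SREBPs are transcription factors made as membrane proteins of the endoplasmic reticulum. When sterols in that membrane run low, Scap carries them to the Golgi, where proteases release the active part, which enters the nucleus and binds sterol regulatory elements in its target promoters. When sterols are plentiful, the Insig proteins hold Scap back, and the targets are transcribed less. The product of Srebf2 acts mainly on cholesterol genes, the main product of Srebf1 in most tissues acts mainly on fatty acid genes, and Insig1 is itself a target. Mϕ that engulf dying cells take up the sterols and fatty acids of these cells, and Mϕ that meet bacterial lipopolysaccharide remodel their membrane lipids. SREBP protein and lipids were not measured here, and the values below are levels of RNA.

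Bone-marrow-derived Mϕ (BMDMs) came from femurs of adult C57BL/6 mice of both sexes and were grown with M-CSF and GM-CSF (20 ng/mL each), over 6 days by the methods and 7 days by the sample labels. The 4 groups, with 2 samples each, were Ctrl (naïve, unstimulated), LPS (naïve, stimulated for 6 h with LPS at 100 ng/mL plus IFNγ at 100 U/mL), Eff (efferocytic, 16 h with apoptotic cells, unstimulated) and LPSEff (efferocytic, then the same stimulation). The apoptotic cells were NIH-3T3 CA fibroblasts, a mouse line that is a single clone and carries a caspase-8 domain which 10 nM of a dimerizer activates; they received dimerizer for 6 h, were added at 5 per Mϕ and were washed away before CD45+ cells were sorted. The dimerizer, also at 10 nM, stayed in the medium during the 16 h with the Mϕ, and no source used here names it for Ctrl and LPS, so that in every comparison of efferocytic with naïve Mϕ it cannot be told apart from the uptake of cells. Nothing in the sources used here says whether the samples of a group came from separate mice or cultures, so that the p-values measure only the spread between these samples.

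The files allowed between 3481288 and 12020918 reads per sample to be recovered, and 3 reads correspond to between 1.73 and 5.71 normalized counts, below every value of the 34 genes. The summed level of 10 Mϕ marker genes lay between 110471 and 165914 normalized counts in all 8 samples, and all 10 were above 3 reads in every group. A summed level of 25 fibroblast genes was 1253 to 1295 in Ctrl, 2289 to 3090 in LPS, 6711 to 11254 in Eff, and 14623 to 18633 in LPSEff. Of the 23 fibroblast genes that were tested, 13 were called higher in Eff than in Ctrl and 14 in LPSEff than in LPS. The 5 dendritic cell genes summed to 2197 to 3043 in Ctrl, 1386 to 1874 in Eff, 8253 to 15733 in LPS and 6375 to 6632 in LPSEff. For 7 neutrophil genes the sums were 694 to 1007 in Ctrl, 1110 to 1465 in Eff, 1743 to 2072 in LPS and 1791 to 2500 in LPSEff, and 6 lymphocyte genes summed to at most 22.0 in any sample. The part of these other transcripts in the levels below was not tested, and in such bulk samples fewer cells of a type and less RNA per cell cannot be told apart.

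The DNA letters that SREBPs are known for were sought in the promoters of the 34 genes, in RefSeq windows from 250 bases before to 50 bases after each gene's start (GRCm38.p6), of which 27 of the 34 genes had at least 1. On both strands, the sterol regulatory element TCACNCCAC occurred without a changed letter in 1 of the 27 genes, Hmgcs1, against 1.44% of the 27025 genes with a window. With up to 1 changed letter, 11 of the 27 genes (40.7%) held it, against 26.7% of all genes. The CCAAT box, a site of the factor NF-Y, which is known to act beside SREBPs at these promoters, was found as CCAAT in 22 of the 27 (81.5%) and in 41.1% of all genes. The E-box CACGTG, which SREBP1 can also bind, was found in 6 (22.2%) and in 8.09% of all genes. A match describes the letters only and shows no binding.

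The matches of 6 genes whose levels are given below are printed because they show how near each promoter comes to the known element. Matches in Acat2, Elovl5, Hsd17b7, Insig2 and Nsdhl are not printed, and the choice followed no stated rule. Each line holds 29 bases, 5′ to 3′ on the strand of the gene, with the match in capitals. Positions are in GRCm39, in which each RefSeq window was found once by its sequence, and the distance is that from the first base of the match to the RefSeq start. Changed letters are counted from 1 at the 5′ end of the element, with the element's base first. In Insig1 the element lies on the opposite strand. Hmgcs1 and Msmo1 each held 1 more match, with 1 changed letter, that is not printed.
Hmgcs1, chr13:120151740-120151768, plus strand, 137 bases before the start, no changed letter: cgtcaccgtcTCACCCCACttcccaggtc
Srebf2, chr15:82031298-82031326, plus strand, 162 bases before the start, C9T: tgacgcaccaTCACCCCATgagccgcttc
Msmo1, chr8:65186771-65186799, minus strand, 177 bases before the start, C9T: ctcactattcTCACTCCATccgcgcagcc
Cyp51, chr5:4154787-4154815, minus strand, 108 bases before the start, C2G: ccagctctgcTGACGCCACataggccgag
Dhcr7, chr7:143376996-143377024, plus strand, 130 bases before the start, C6T: ggaaaagggcTCACTTCACcttatagctc
Insig1, chr5:28276391-28276419, plus strand, 9 bases before the start, T1A: gtgtagtgtcGTGGCGTGTaccttccatg
The stretches of Hmgcs1, Srebf2 and Cyp51 lie upstream of the span that GENCODE gives the gene. Those of Msmo1, Dhcr7 and Insig1 lie inside it, since GENCODE starts these genes upstream of the RefSeq start used.

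Naïve, unstimulated Mϕ held the most RNA of most of these genes. The mean of Ctrl was the highest of the 4 group means in 28 of the 34 genes, and that of LPSEff was the lowest in 17. Set against the mean of Ctrl, the median gene of the 34 stood at 47.6% and 69.8% in the LPS samples, at 49.2% and 54.7% in the Eff samples, and at 37.3% and 43.9% in the LPSEff samples. In 23 of the 34 genes both Ctrl samples lay above all other 6 samples, which held for 6.59% of all genes tested. These figures rest on the same Ctrl samples as the comparison that drew attention to the genes and support nothing beyond it. The heatmap of all 34 genes shows the 4 groups side by side.

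**Figure D1:**
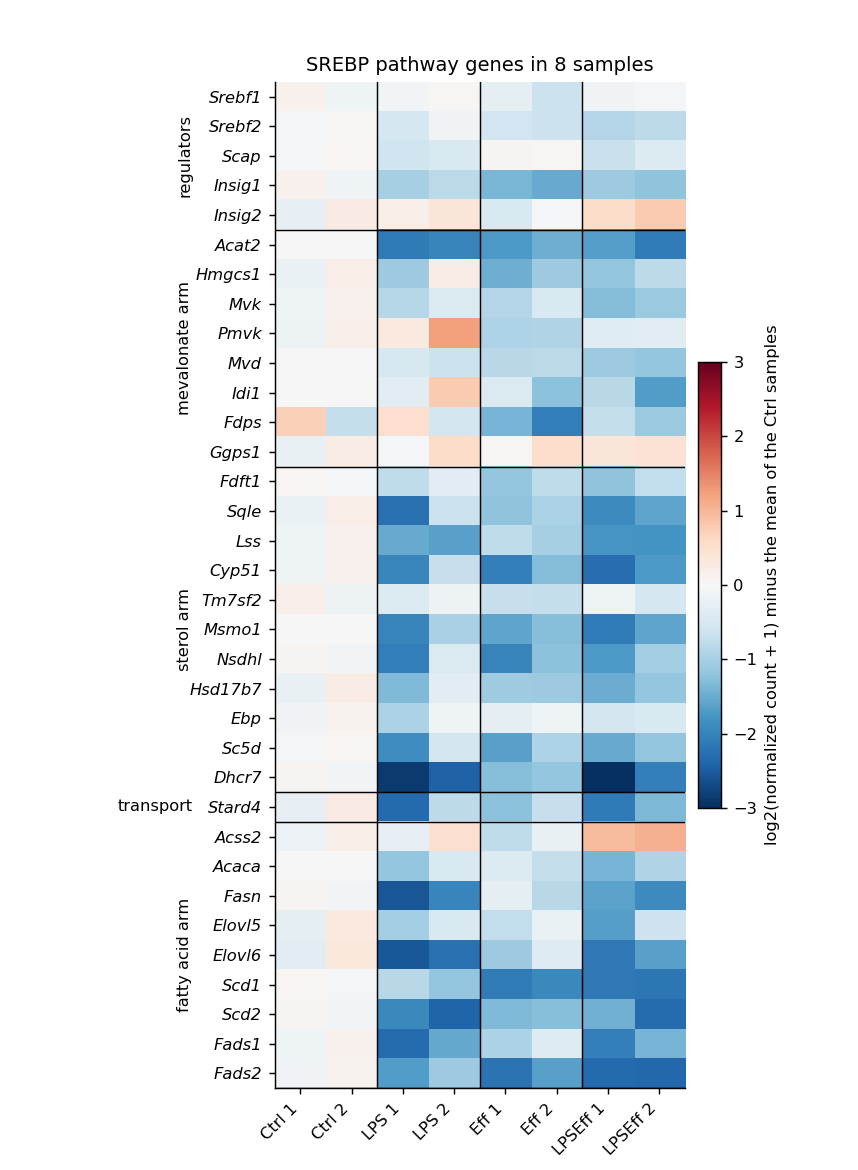
Level of each of the 34 genes (rows, grouped by role) in each of the 8 samples (columns) as the difference of log2(normalized count + 1) from the mean of the Ctrl samples, blue for lower and red for higher. Most rows are blue in all 3 other groups, with Insig2, Acss2, Pmvk and Ggps1 among the rows that hold red, and the second LPS sample is paler than the first in most rows of the mevalonate and sterol arms.

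In what follows, pairs of values are the normalized counts of replicate 1 and replicate 2, differences are of log2(normalized count + 1) with their standard errors, and adjusted p-values come from limma over all 16309 genes (n = 2 per group). The scale understates changes of genes with low counts.

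Among the regulators, Insig1 differed most in LPS and in Eff against Ctrl. Insig1 (ENSMUSG00000045294, chr5:28276315-28283668, plus strand in GRCm39) had 533 and 445 in Ctrl, 244 and 276 in LPS, and in the efferocytic groups 188 and 171 (Eff) and 228 and 209 (LPSEff). Both Ctrl samples stood above the other 6, and the Eff samples were the lowest. In LPS, Insig1 fell by 0.90 (SE 0.19, adjusted p = 0.0120) against Ctrl, to 53.2% of the Ctrl mean. Efferocytosis alone came with a difference of -1.43 (SE 0.19), or 36.8% of the Ctrl mean. In stimulated Mϕ the difference between LPSEff and LPS was -0.25 (SE 0.19, adjusted p = 0.765). LPSEff against Eff gave 0.28 (SE 0.19, adjusted p = 0.374), which turned to -0.17 once the samples were rescaled to equal totals.

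Insig2, the other Insig gene, which is known to depend little on SREBPs, was higher in stimulated efferocytic Mϕ. Its levels were 124 and 173 in Ctrl, 164 and 189 in LPS, and in the efferocytic groups 106 and 141 (Eff) and 215 and 254 (LPSEff). The LPSEff samples were the highest of all, and the Ctrl, LPS and Eff samples overlapped in part. Insig2 rose by 0.93 (SE 0.26, adjusted p = 0.0376) in LPSEff against Eff, to 189% of the Eff mean. At equal totals this rise was 0.48 with an adjusted p of 0.137.

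Srebf2 and Srebf1 encode the factors themselves. Srebf2 (ENSMUSG00000022463, chr15:82031382-82093201, plus strand) had 2138 and 2249 in Ctrl, 1509 and 2040.2 in LPS, and in the efferocytic groups 1468 and 1398 (Eff) and 1195 and 1277 (LPSEff). Every sample of the other 3 groups lay below both Ctrl samples, and the LPSEff samples were the lowest. The difference was -0.61 (SE 0.19) in Eff against Ctrl, -0.32 (SE 0.19, adjusted p = 0.276) in LPS against Ctrl, and -0.51 (SE 0.19, adjusted p = 0.405) in LPSEff against LPS. Rescaling to equal totals or quantiles put Srebf2 past the threshold in LPS against Ctrl, at -0.72 (adjusted p = 0.0097) and -0.88 (adjusted p = 0.00397).

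Srebf1 varied less, with 1162 and 961 in Ctrl, 1002 and 1078 in LPS, and in the efferocytic groups 879.8 and 676 (Eff) and 977 and 1011 (LPSEff). Its Ctrl and LPS samples overlapped, and the Eff samples were the lowest, -0.45 (SE 0.20) from Ctrl. The counts do not separate the isoforms of Srebf1, which start at different promoters. Scap, the escort, had 359.9 and 391 in Ctrl, 247 and 271 in LPS, and in the efferocytic groups 397 and 386 (Eff) and 236 and 283 (LPSEff). The split ran by stimulation, since all 4 samples with LPS/IFNγ were below all 4 without it. The differences of Scap were -0.53 (SE 0.19, adjusted p = 0.0735) in naïve and -0.60 (SE 0.19, adjusted p = 0.0571) in efferocytic Mϕ, short of the threshold in both. At equal totals both passed it, with adjusted p-values of 0.00361 and 0.00248.

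**Figure D2:**
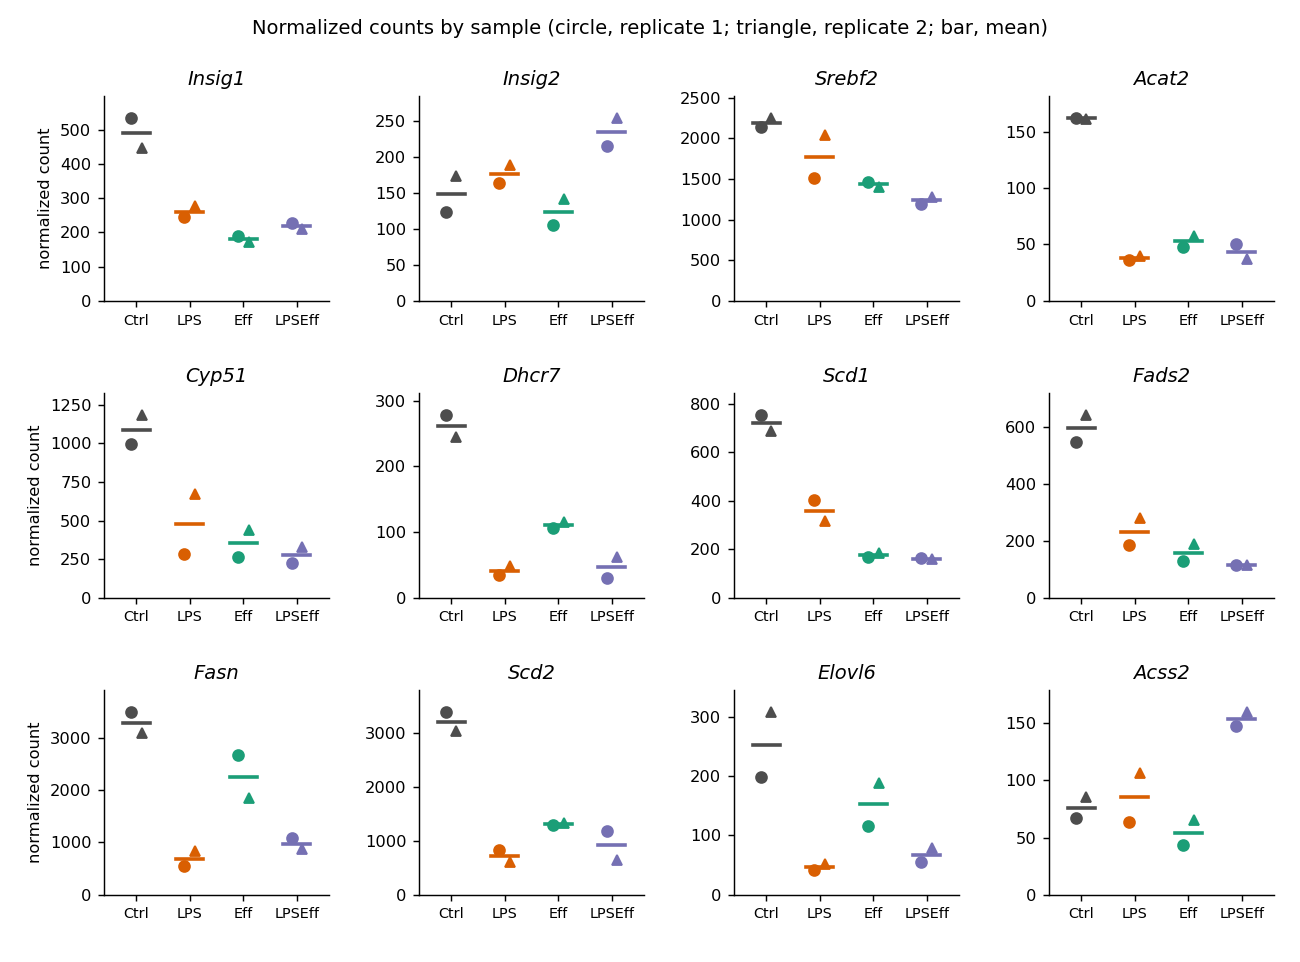
Normalized counts of 12 of the genes in each sample, on linear axes from 0, with a circle for replicate 1, a triangle for replicate 2 and a bar for the mean of each group. Insig1, Acat2, Scd1, Fads2 and Scd2 are highest in both Ctrl samples, Fasn and Elovl6 are lowest in the LPS samples, and Insig2 and Acss2 are highest in the LPSEff samples.

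The mevalonate arm turns acetyl-CoA into the farnesyl and geranylgeranyl diphosphates from which sterols and the lipid anchors of proteins are made. In Eff, 7 of its 8 genes had both samples under both Ctrl samples, as 17.8% of all genes did, and in LPS 3 of the 8 had, as 30.9% of all genes did. The median gene of the 8 stood at 52.8% and 49.95% of the Ctrl mean in the Eff samples, at 50.1% and 45.1% in LPSEff, and at 75.4% and 94.9% in LPS.

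Acat2, which joins acetyl-CoA units at the entry of the pathway, was low in every group but Ctrl. It had 162 and 161 in Ctrl, 36.2 and 39.6 in LPS, and in the efferocytic groups 48.2 and 57.9 (Eff) and 50.7 and 36.8 (LPSEff), so that the Ctrl samples were far above the rest and the other 3 groups overlapped in part. Acat2 fell by 2.06 (SE 0.28, adjusted p = 0.00144) in LPS, to 23.5% of the Ctrl mean, and differed by -1.60 (SE 0.28) in Eff. Between LPSEff and LPS the difference was 0.19 (SE 0.28, adjusted p = 0.912).

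Hmgcs1 makes HMG-CoA, an early intermediate of the pathway. The gene (ENSMUSG00000093930, chr13:120151915-120170470, plus strand) whose promoter held the unchanged element had 678 and 892 in Ctrl, 367 and 913 in LPS, and in the efferocytic groups 282 and 366 (Eff) and 340.4 and 453 (LPSEff). The Eff and LPSEff samples lay below both Ctrl samples, while the LPS samples stood on either side of them. The difference of Hmgcs1 was -1.27 (SE 0.40) in Eff and -0.42 (SE 0.40, adjusted p = 0.504) in LPS, and the latter was 0.23 without the first LPS sample and -1.08 (adjusted p = 0.043) without the second.

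Fdps, the farnesyl diphosphate synthase, had 179 and 64.8 in Ctrl, 154 and 73.1 in LPS, and in the efferocytic groups 40.3 and 24.7 (Eff) and 64.9 and 49.5 (LPSEff). Its lowest samples were those of Eff, which differed by -1.74 (SE 0.54) from Ctrl, but the Ctrl samples themselves were far apart. Pmvk, which phosphorylates phosphomevalonate, was the only gene of the arm with higher values in both LPS samples than in both Ctrl samples (207 and 399 against 152 and 189.7), at 0.75 (SE 0.31, adjusted p = 0.121). This difference was 1.23 (adjusted p = 0.0195) without the first LPS sample and 0.28 without the second, and it was also called after quantile normalization, at 0.81 (adjusted p = 0.0465). In LPSEff, Pmvk stood at 131 and 137, -1.09 (SE 0.31, adjusted p = 0.224) from LPS.

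The kinase Mvk and the decarboxylase Mvd, which act on either side of Pmvk, were lower in each comparison. Their differences were -0.67 (SE 0.26) and -0.83 (SE 0.19) in Eff, -0.64 (SE 0.26, adjusted p = 0.115) and -0.56 (SE 0.19, adjusted p = 0.0627) in LPS, and -0.56 (SE 0.26, adjusted p = 0.531) and -0.56 (SE 0.19, adjusted p = 0.315) in LPSEff against LPS. Idi1, an isomerase with 5 named pseudogene copies that could share its reads, lay between 10.2 and 59.9 normalized counts and had its lowest mean in LPSEff. Ggps1, which extends the chain towards protein prenylation, was the only gene of the arm with a higher mean in all 3 other groups than in Ctrl, between 0.25 and 0.29 for LPS and Eff, with overlapping samples and, at equal totals, a difference of -0.15 in LPS.

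The sterol arm closes squalene into lanosterol and trims lanosterol to cholesterol. All 11 of its genes had lower values in both samples of LPS, and in both samples of Eff, than in either Ctrl sample, as 30.9% of all genes had in LPS and 17.8% in Eff. The median gene stood at 42.9% and 49.8% of the Ctrl mean in Eff, at 27.2% and 68.1% in LPS, and at 29.7% and 43.5% in LPSEff.

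Dhcr7, which reduces the last double bond on the way to cholesterol, had the largest fall of the 34 genes in LPS against Ctrl. The gene (ENSMUSG00000058454, chr7:143376740-143402149, plus strand) had 278 and 245 in Ctrl, 34.9 and 47.7 in LPS, and in the efferocytic groups 107 and 116 (Eff) and 30.1 and 62.2 (LPSEff). The 4 stimulated samples lay below the Eff samples, which lay below the Ctrl samples. Dhcr7 fell by 2.65 (SE 0.36, adjusted p = 0.00150) in naïve Mϕ, to 15.8% of the Ctrl mean, and fell by 1.34 (SE 0.36, adjusted p = 0.0324) in efferocytic Mϕ, to 41.4% of the Eff mean. Efferocytosis alone came with -1.22 (SE 0.36).

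Lss, the lanosterol synthase, also had its stimulated samples lowest. Its values were 341 and 413 in Ctrl, 131 and 119.8 in LPS, and in the efferocytic groups 219.9 and 188 (Eff) and 109 and 108 (LPSEff), and the 4 groups did not overlap. Lss fell by 1.58 (SE 0.21, adjusted p = 0.00130) in naïve and fell by 0.90 (SE 0.21, adjusted p = 0.0183) in efferocytic Mϕ, and was -0.88 (SE 0.21) in Eff against Ctrl. The LPSEff samples differed from the LPS samples by -0.20 (SE 0.21, adjusted p = 0.835).

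Msmo1, which oxidizes the methyl groups of the sterol ring, had 741 and 723 in Ctrl, 182 and 372 in LPS, and in the efferocytic groups 244 and 302 (Eff) and 169 and 244 (LPSEff). It fell by 1.49 (SE 0.34, adjusted p = 0.0152) in LPS and was -1.43 (SE 0.34) in Eff. Sqle, the squalene epoxidase and a point of control of the pathway, had 998 and 1309 in Ctrl, 243 and 731 in LPS, and in the efferocytic groups 495 and 593 (Eff) and 302 and 382 (LPSEff). Sqle fell by 1.44 (SE 0.45, adjusted p = 0.0494) in LPS, with a first LPS sample at a level far under that of the second.

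Cyp51, the lanosterol demethylase, had 996 and 1184 in Ctrl, 281 and 671 in LPS, and in the efferocytic groups 263 and 442 (Eff) and 223 and 327 (LPSEff). All 6 other samples were below both Ctrl samples, at -1.67 (SE 0.42) in Eff and -1.32 (SE 0.42, adjusted p = 0.0552) in LPS, just short of the threshold. Nsdhl, a dehydrogenase that acts with Msmo1, had 95.2 and 86.2 in Ctrl, 20.7 and 67.0 in LPS, and in the efferocytic groups 21.9 and 38.1 (Eff) and 26.9 and 43.1 (LPSEff), and its first LPS sample was as low as the first Eff sample while the second LPS sample was closer to Ctrl. The difference of Nsdhl was -1.61 (SE 0.55) in Eff and -1.25 (SE 0.55, adjusted p = 0.145) in LPS.

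The other 5 genes of the sterol arm were Fdft1, Hsd17b7, Sc5d, Ebp and Tm7sf2. In Eff against Ctrl they ranged from -1.27 (SE 0.42) for Sc5d, a sterol desaturase, to -0.20 (SE 0.28) for Ebp, an isomerase. In LPS against Ctrl the range was from -1.21 (SE 0.42, adjusted p = 0.0737) for Sc5d to -0.28 (SE 0.26, adjusted p = 0.503) for Tm7sf2, a sterol reductase whose locus overlaps that of Vps51 on the same strand, so that its count is uncertain. In LPSEff against LPS none of the 11 passed the threshold. At an unadjusted p under 0.05 the count was also 0, where 1679 of all 16309 genes were found.

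Stard4, which moves cholesterol between membranes, had 699 and 979 in Ctrl, 164 and 477 in LPS, and in the efferocytic groups 352 and 509.5 (Eff) and 188 and 322 (LPSEff). Both Ctrl samples were above all others, and the differences were -0.96 (SE 0.49) in Eff, -1.56 (SE 0.49, adjusted p = 0.0510) in LPS and -0.78 (SE 0.49, adjusted p = 0.322) in LPSEff against Eff.

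In the fatty acid arm, Acss2 and Acaca supply acetyl-CoA and malonyl-CoA, Fasn builds palmitate, and the elongases (Elovl) and desaturases (Scd, Fads) lengthen and unsaturate the chains. Here the lowest values came with LPS/IFNγ. The median gene of the 9 stood at 31.1% and 43.8% of the Ctrl mean in LPS, at 31.3% and 31.0% in LPSEff, and at 51.5% and 61.0% in Eff.

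Fasn (fatty acid synthase, ENSMUSG00000025153, chr11:120696672-120715995, minus strand) had 3499.9 and 3087 in Ctrl, 554 and 827 in LPS, and in the efferocytic groups 2673 and 1848 (Eff) and 1076 and 879 (LPSEff). All 4 groups were separate, with LPS lowest and LPSEff next. Fasn fell by 2.28 (SE 0.26, adjusted p = 0.000735) in LPS, to 21.0% of the Ctrl mean, and fell by 1.19 (SE 0.26, adjusted p = 0.0150) in LPSEff, to 43.3% of the Eff mean. Eff was -0.56 (SE 0.26) from Ctrl, and LPSEff was 0.52 (SE 0.26, adjusted p = 0.567) from LPS.

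Elovl6, which lengthens palmitate, had the same order of groups, with 198 and 309 in Ctrl, 41.4 and 51.8 in LPS, and in the efferocytic groups 116 and 189 (Eff) and 55.4 and 78.7 (LPSEff). It fell by 2.39 (SE 0.35, adjusted p = 0.00208) in LPS, to 18.4% of the Ctrl mean. Its difference in LPSEff against Eff was -1.15 (SE 0.35, adjusted p = 0.0511), just short of the threshold.

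The desaturases Scd1 and Scd2, neighbouring paralogs that put the first double bond into stearate and palmitate, differed in their patterns. Scd1 (ENSMUSG00000037071, chr19:44382894-44399154, minus strand) had 754 and 688 in Ctrl, 404 and 316 in LPS, and in the efferocytic groups 166 and 186 (Eff) and 163 and 159 (LPSEff). The Ctrl samples were highest, the LPS samples next, and the 4 efferocytic samples lowest and close together. Scd1 fell by 1.01 (SE 0.20, adjusted p = 0.00808) in LPS and fell by 1.15 (SE 0.20, adjusted p = 0.0490) in LPSEff against LPS, to 44.7% of the LPS mean. In Eff it was -2.03 (SE 0.20), or 24.5% of the Ctrl mean, and LPSEff differed from Eff by -0.13 (SE 0.20, adjusted p = 0.713).

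Scd2 had 3395 and 3035 in Ctrl, 836 and 611 in LPS, and in the efferocytic groups 1286 and 1329 (Eff) and 1186 and 647 (LPSEff), with the lowest mean in LPS rather than in an efferocytic group. It fell by 2.17 (SE 0.29, adjusted p = 0.00146) in LPS, to 22.5% of the Ctrl mean, was -1.30 (SE 0.29) in Eff, and differed by 0.29 (SE 0.29, adjusted p = 0.829) between LPSEff and LPS. No test compared Scd1 with Scd2.

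Fads2 and Fads1 act in turn on the polyunsaturated fatty acids and lie near each other on chromosome 19. Fads2 (ENSMUSG00000024665, chr19:10038130-10079203, minus strand) had 548 and 642 in Ctrl, 185 and 279 in LPS, and in the efferocytic groups 128 and 189.8 (Eff) and 116 and 115 (LPSEff). The order of its group means was that of Scd1, with the LPSEff samples lowest. Fads2 fell by 1.38 (SE 0.27, adjusted p = 0.00861) in LPS and was -1.92 (SE 0.27) in Eff, or 26.7% of the Ctrl mean. In LPSEff it stood at 49.9% of the LPS mean, -0.97 (SE 0.27, adjusted p = 0.224). Fads1 had 657 and 794 in Ctrl, 145 and 248 in LPS, and in the efferocytic groups 373 and 552 (Eff) and 173 and 273 (LPSEff), fell by 1.92 (SE 0.34, adjusted p = 0.00500) in LPS, and was -0.67 (SE 0.34) in Eff.

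Acss2, which makes acetyl-CoA from acetate, was the exception in the arm. It had 66.6 and 85.6 in Ctrl, 63.4 and 107 in LPS, and in the efferocytic groups 43.8 and 64.9 (Eff) and 147 and 159.9 (LPSEff). The LPSEff samples were the highest of the 8, and the other 3 groups overlapped in part. Acss2 rose by 1.51 (SE 0.33, adjusted p = 0.0149) in LPSEff against Eff, to 282% of the Eff mean, and the rise was also called at equal totals, at 1.06 (adjusted p = 0.0255). Against LPS, LPSEff differed by 0.89 (SE 0.33, adjusted p = 0.394). Acaca and Elovl5 completed the arm, at -0.81 (SE 0.30, adjusted p = 0.0855) and -0.74 (SE 0.38, adjusted p = 0.209) in LPS and -0.56 (SE 0.30) and -0.47 (SE 0.38) in Eff.

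The first comparison asks what LPS/IFNγ did in naïve Mϕ. In LPS against Ctrl, 12 of the 34 genes fell: Insig1, Acat2, Sqle, Lss, Msmo1, Dhcr7, Fasn, Elovl6, Scd1, Scd2, Fads1 and Fads2. Among all genes tested, 11.6% were called lower. None of the 34 was called higher, against 12.4% of all genes. At an unadjusted p under 0.05, 1 (Pmvk) was higher, where 2854 of all 16309 genes were. On the recovered reads, edgeR and DESeq2 also called 0 of the 34 higher. Pmvk was called higher after quantile normalization and without the first LPS sample, with the values given above. The difference was negative in 29 of the 34, with a median of -0.83, beside -0.01 for all genes, and in 26 both LPS samples lay under both Ctrl samples, as in 30.9% of all genes. The median was -0.51, with 27 negative, without the first LPS sample and -1.05, with 31 negative, without the second. By arm, 6 of the 9 fatty acid genes, 4 of the 11 sterol genes, 1 of the 8 mevalonate genes and 1 of the 5 regulators fell. This comparison shares the Ctrl samples with that of Eff and Ctrl.

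The falls of Acat2, Lss, Dhcr7, Fasn, Elovl6, Scd2 and Fads1 were called under each of the other settings and without each sample in turn. Scd1 was not called without the first Ctrl sample (adjusted p = 0.0607), Fads2 without the second Ctrl sample (0.0626), Insig1 without the first Ctrl sample (0.0892) or the first LPS sample (0.0577), and Msmo1 without the first Ctrl (0.0788), the second Ctrl (0.0723) or the first LPS sample (0.0551, at a difference of -0.98). Sqle was called without the second LPS sample but not without any other, and its difference was -0.64 without the first LPS sample. Nor was Sqle called by edgeR (adjusted p = 0.0584). Limma with a pseudocount of 0.5 (adjusted p = 0.0501) or with only the groups compared (adjusted p = 0.0955) did not call it either. The count of 12 rose without the second LPS sample, where the calls over all genes fell. Without the first Ctrl sample it fell, as did the calls over all genes, and the median difference of the 34 genes was -0.88.

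In efferocytic Mϕ the same stimulation gave 5 calls. In LPSEff against Eff, Lss, Dhcr7 and Fasn fell, and Insig2 and Acss2 rose. These 3 of 34 lower calls are a share close to the 8.95% of all genes, and the 2 higher calls stand beside 10.7%. The difference was negative in 24 of the 34, with a median of -0.30 beside 0.01 for all genes, and 18 of the 34 had both LPSEff samples under both Eff samples, as 30.4% of all genes did. The median was -0.16, with 22 negative, without the first LPSEff sample. Of the 34 genes, 23 were lower after LPS/IFNγ in naïve as well as in efferocytic Mϕ. Of all 16309 genes, 8245 were lower in LPS against Ctrl and 8102 in LPSEff against Eff. How many were lower in both was not counted. These comparisons share no sample, but they use the Ctrl and the Eff samples, whose difference drew attention to the genes. Nothing is read from the 23.

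These 5 calls depend on single samples, since each was lost without at least 1 of the Eff or LPSEff samples. Such a fit leaves 1 sample in a group, and calls were then also fewer over all genes. Without 1 sample, the differences kept their sign. They ranged from -1.01 to -0.78 for Lss, -1.85 to -0.83 for Dhcr7 and -1.46 to -0.92 for Fasn. Insig2 stayed between 0.72 and 1.13, and Acss2 between 1.23 and 1.79. Rescaled to equal totals, the median of all genes moved by -0.39 in LPS against Ctrl and by -0.44 in LPSEff against Eff, and the medians of the 34 genes became -1.22 and -0.75, with 25 lower and 0 higher calls in the former and 14 lower and 1 higher in the latter. At equal totals 26.5% of all genes were called lower and 8.71% higher in LPS against Ctrl, and 26.7% lower and 7.46% higher in LPSEff against Eff. The difference of Dhcr7 was -0.83 without the first LPSEff sample.

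**Figure D3:**
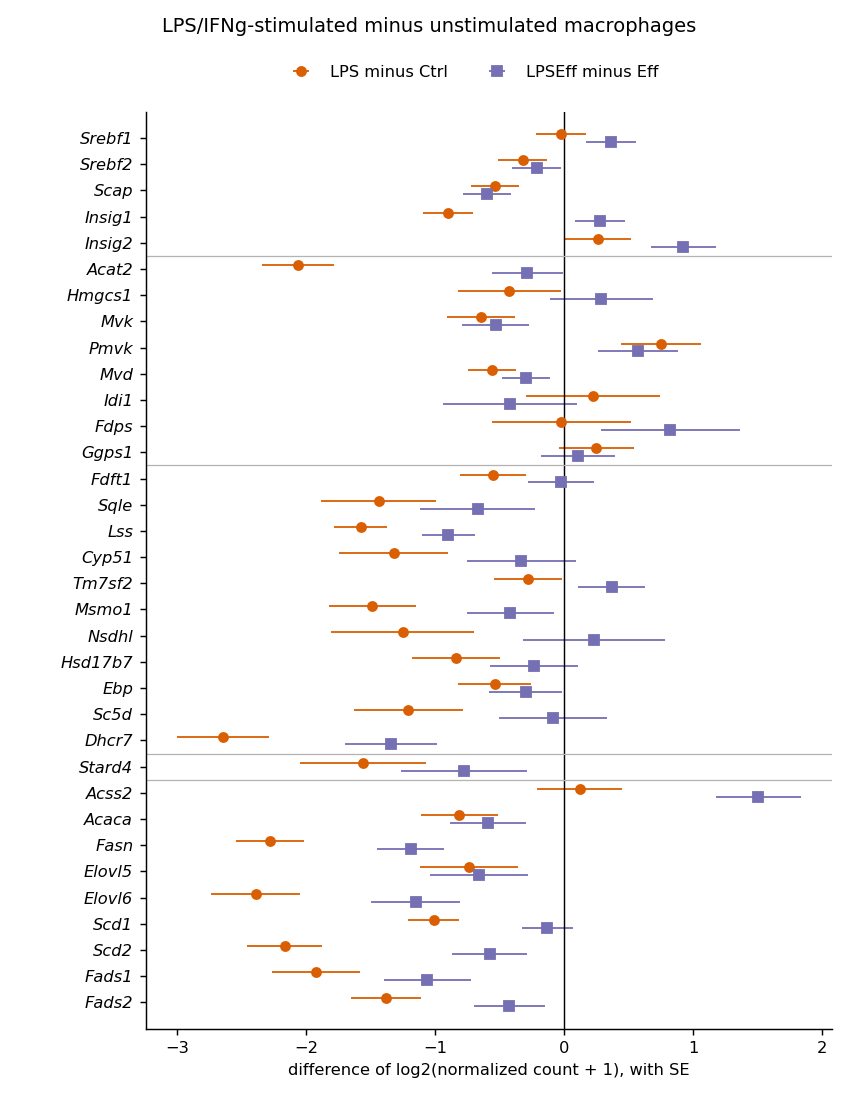
Difference between stimulated and unstimulated Mϕ on the scale of log2(normalized count + 1), with standard errors, for each of the 34 genes: circles for naïve Mϕ (LPS minus Ctrl) and squares for efferocytic Mϕ (LPSEff minus Eff). Circles lie left of 0 in 29 genes and squares in 24, with the leftmost circle at -2.65 for Dhcr7 and the rightmost square at 1.51 for Acss2.

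The second comparison, of efferocytic with naïve Mϕ, was made without and with stimulation. Without it, in Eff against Ctrl, 32 of the 34 differences were negative, with a median of -0.90 beside -0.01 for all genes, and Scap and Ggps1 were positive. In 30 genes both Eff samples lay under both Ctrl samples, as in 17.8% of all genes. By the threshold of the other comparisons Scd1, Fads2 and Insig1 counted as lower, where 0.0368% of all genes did, and 0 of the 34 as higher, where 0.215% of all genes did. Since these values drew attention to the genes, the counts describe that choice, are no test of it, and nothing is read from them.

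With stimulation, LPSEff was compared with LPS, which are 4 other samples. The difference was negative in 24 of the 34, with a median of -0.23 beside -0.0025 for all genes. In 10 genes both LPSEff samples lay under both LPS samples, as in 17.0% of all genes: Srebf2, Insig1, Mvk, Pmvk, Mvd, Idi1, Fdps, Lss, Scd1 and Fads2. In 4 genes, Insig2, Acss2, Fasn and Elovl6, both lay above, as in 19.3% of all genes. Scd1 was the only gene called lower, where 0.0429% of all genes were, and 0 were called higher, where 0.730% of all genes were. At an unadjusted p under 0.05, 6 were lower and 1 higher, where 670 and 1009 of all 16309 genes were. EdgeR called 0 of the 34 in either direction and 126 of all genes. DESeq2 called 2 lower, Scd1 and Pmvk, and 368 of all genes in either direction.

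The call of Scd1 was lost whichever sample was left out, at differences from -1.32 to -0.97. Without a Ctrl or Eff sample, which this comparison does not use, its difference stayed at -1.15. Only the shared spread and the degrees of freedom changed there. Calls over all genes were also fewer in each of these fits. The median of the 34 also rests on the LPS samples. Without the second LPS sample it was 0.07, with 14 of 34 negative, and without the first it was -0.56, with 28 of 34 negative. Without the second LPSEff sample it was -0.47. The fibroblast genes, with the sums given above, were higher in the efferocytic samples of both comparisons.

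**Figure D4:**
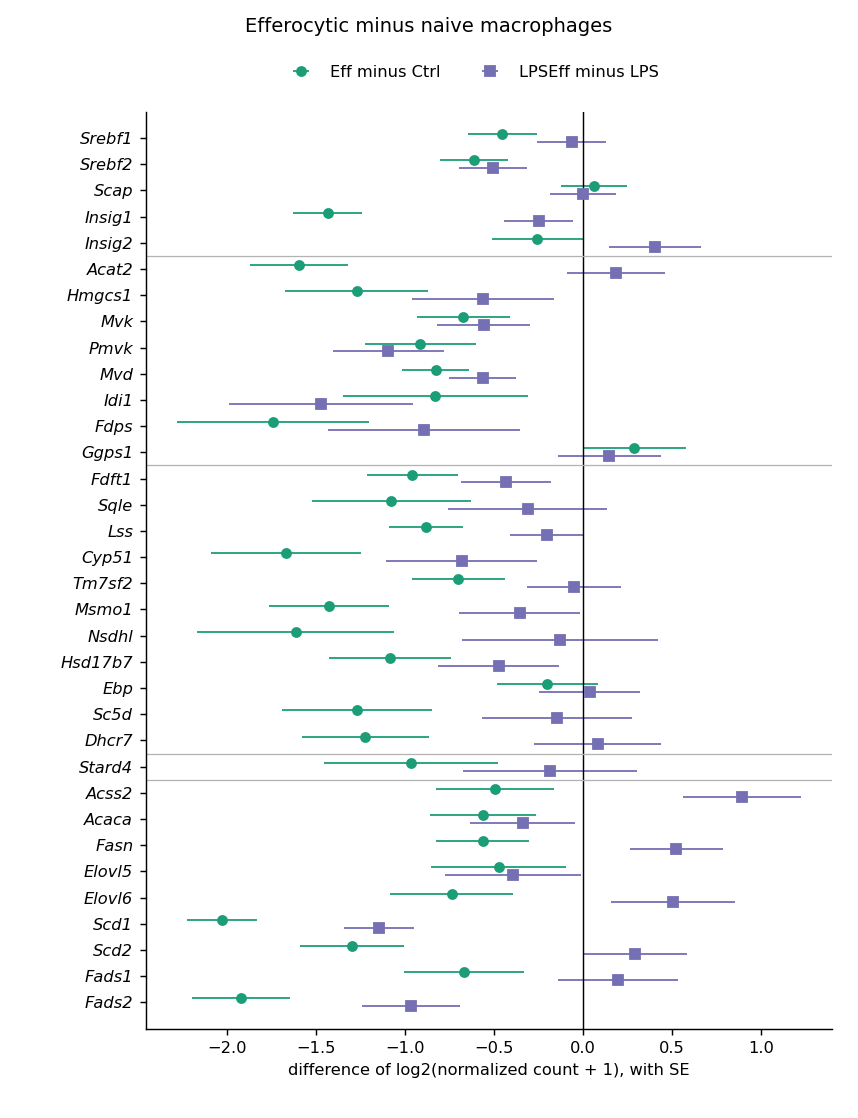
Difference between efferocytic and naïve Mϕ on the scale of log2(normalized count + 1), with standard errors, for each of the 34 genes: circles without stimulation (Eff minus Ctrl) and squares with LPS/IFNγ (LPSEff minus LPS). Circles lie left of 0 in 32 genes and squares in 24, and Scd1, at -2.03 and -1.15, is among the genes that are low in both.

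On the log2 scale, LPSEff was less far below Ctrl than the sum of both single differences in most of the genes. The interaction, which is the difference between the LPS/IFNγ effect in efferocytic and in naïve Mϕ, was positive in 30 of the 34 genes, with a median of 0.74 beside 0.01 for all genes. Its limma test called 0 of the 34 and 0% of all genes, with 10 of the 34 and 311 of all 16309 genes at an unadjusted p under 0.05, and edgeR and DESeq2 called 0 as well. The largest values were those of Acat2 at 1.78 (SE 0.39), Scd2 at 1.59 (SE 0.41) and Nsdhl at 1.48 (SE 0.78), and the lowest was that of Idi1 at -0.64 (SE 0.73). The interaction contains the difference between Eff and Ctrl, by which genes of the list became known, and its sign is a description. Without the first LPS sample its median was 0.41, with 24 positive.

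The LPS samples differed from each other in these genes more than the samples of the other groups did. The second LPS sample was above the first in 29 of the 34 genes, with a median difference of 0.57, beside 0.13 over all genes tested. In the 19 genes of the mevalonate and sterol arms the median was 0.81, and 7 of the 19 differed by at least 1, as 6.82% of all genes did. In Ctrl, Eff and LPSEff the median difference of the 34 genes was 0.13, 0.21 and 0.15. The 9 genes of the fatty acid arm set LPS apart less, with a median of 0.58 in LPS and 0.54 in Eff. The depth of the LPS samples was 6548938 and 9344411 reads, and its part in this difference was not tested.

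**Figure D5:**
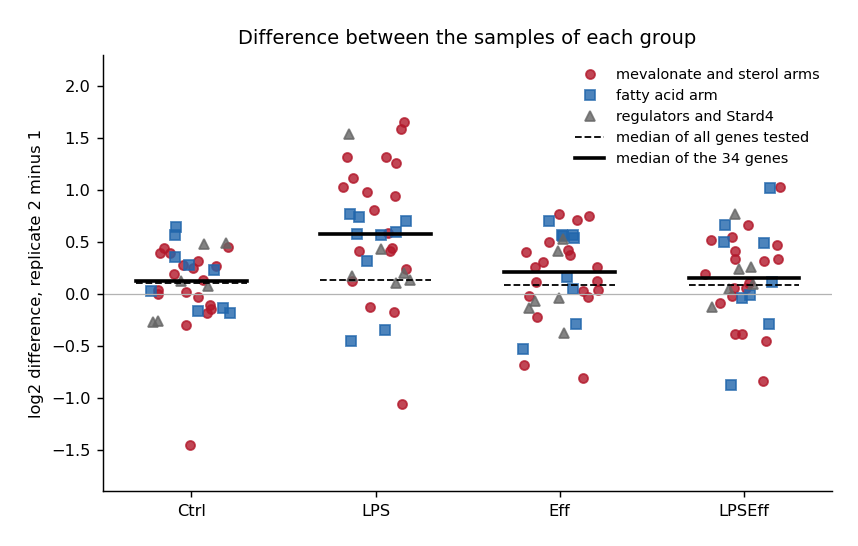
Difference between replicate 2 and replicate 1 of each group on the scale of log2(normalized count + 1), for the 34 genes (points, by role), with the median of the 34 genes as a solid bar and that of all 16309 genes tested as a dashed bar. The solid bar is at 0.57 in LPS and between 0.13 and 0.21 in the other groups.

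The list leaves out other genes of the same pathways, which were described by a list written with earlier results known. Of 24 such lipid synthesis genes, 20 were tested. In LPS against Ctrl 9 of them fell and 2 rose, with a median of -0.57, where 11.6% of all genes fell and 12.4% rose. In LPSEff against Eff 7 fell and 3 rose, with a median of -0.43, where 8.95% of all genes fell and 10.7% rose. In both comparisons of efferocytic with naïve Mϕ limma called 0 of the 20, with 1 higher and 5 lower in Eff against Ctrl and 2 lower in LPSEff against LPS at an unadjusted p under 0.05. Of all 16309 genes, 576 were higher and 424 lower by that p in Eff against Ctrl. In LPSEff against LPS 1009 were higher and 670 lower.

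Acsl1, which activates fatty acids with coenzyme A and is known as an LPS-induced gene of Mϕ, rose by 2.47 (SE 0.26, adjusted p = 0.000465) in naïve and rose by 3.02 (SE 0.26, adjusted p = 0.000168) in efferocytic Mϕ, from a mean of 1492 ± 529 (SD, n = 2) in Ctrl to 7991 ± 144 in LPS. Its relative Acsl3 fell by 2.13 (SE 0.22, adjusted p = 0.000405) in LPS and fell by 1.36 (SE 0.22, adjusted p = 0.00375) in LPSEff against Eff. The elongase Elovl7 fell by 2.39 (SE 0.51, adjusted p = 0.0114) and fell by 2.58 (SE 0.51, adjusted p = 0.00951) in the same comparisons. Mid1ip1, which activates acetyl-CoA carboxylase, fell by 1.75 (SE 0.33, adjusted p = 0.00661) in LPS, to 28.9% of the Ctrl mean. In LPSEff against Eff it fell by 2.71 (SE 0.33, adjusted p = 0.001002), to 14.3% of the Eff mean. Its difference in Eff against Ctrl was 0.01 (SE 0.33).

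Of 23 genes of SREBP control, lipoprotein uptake and oxysterol response, 20 were tested. In LPS against Ctrl 6 rose and 4 fell, where 12.4% and 11.6% of all genes did. In LPSEff against Eff 5 rose and 2 fell, where 10.7% and 8.95% of all genes did. In both comparisons of efferocytic with naïve Mϕ limma called 0, with 1 higher and 2 lower in Eff and 2 higher and 1 lower in LPSEff at an unadjusted p under 0.05. The counts over all genes are those given for the lipid synthesis genes. Abca1, which exports cholesterol and answers to oxysterols through LXR, had 710.3 and 634 in Ctrl, 6967 and 3172 in LPS, and in the efferocytic groups 1539 and 1546 (Eff) and 7162 and 10289 (LPSEff). It rose by 2.81 (SE 0.35, adjusted p = 0.00104) in LPS and rose by 2.48 (SE 0.35, adjusted p = 0.00212) in LPSEff against Eff, and both Eff samples were above both Ctrl samples, at 1.20 (SE 0.35). Most of the 34 genes had differences of the other sign in these 3 comparisons. Abcg1, of the same list as Abca1, had 5621 and 5030 in Ctrl and 3390 and 3323 in LPS. In the efferocytic groups it had 5549 and 5529 (Eff) and 3377 and 2856 (LPSEff). Its stimulated samples were all below its unstimulated ones, unlike those of Abca1.

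Ch25h, the hydroxylase that makes an oxysterol known to hold back SREBP processing, rose by 1.64 (SE 0.39, adjusted p = 0.0190) in LPS, from 474 and 765 to 2181 and 1628. Mylip, the ligase that degrades the LDL receptor, rose by 0.99 (SE 0.19, adjusted p = 0.00775) in LPSEff against Eff, and Syvn1, a ubiquitin ligase of the endoplasmic reticulum, rose by 1.26 (SE 0.29, adjusted p = 0.0189). Both genes were also higher in LPS than in Ctrl. Mylip had 445 and 444 in LPS against 171 and 175 in Ctrl. Syvn1 had 784 and 542 in LPS against 333 and 236 in Ctrl. Tmem97, a sterol-responsive membrane protein that binds the cholesterol exporter of lysosomes, fell by 1.80 (SE 0.36, adjusted p = 0.00856) in LPS, to 29.2% of the Ctrl mean.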

How the data were processed

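BMDMs of 4 groups (Ctrl, LPS, Eff and LPSEff) with 2 samples each were profiled by total RNA sequencing. The authors took rRNA out of the samples and, with bowtie2, its reads out of the cutadapt-trimmed single-end data, mapped to mm39 with STAR, counted with htseq-count and compared groups with DESeq2. Versions and annotation release are not given in the sources used here. For each gene the authors deposited a normalized count (unit: signal), in which reads had been divided by a size factor of the sample. All 100% of the values were whole multiples of the worth of 1 read (tolerance 0.001), so that the reads, 3481288 to 12020918 per sample, could be recovered. Intervals of depth cover counting error only.

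Of 55359 Ensembl identifiers, 54749 (98.9%) were named from GENCODE annotation of GRCm39. The members and lists were chosen with earlier results of these data known. The main test was limma (3.58.1, R 4.3.3) and its trend option, applied to log2(normalized count + 1) of the 16309 genes averaging 10 or more, with all 4 groups in a single fit with 4 residual degrees of freedom, Benjamini-Hochberg over all genes. A gene was called at an adjusted p under 0.05. With 2 against 2 samples, the smallest p of an exact permutation test is 0.333. Values in every sample are given for the 5 regulators and, per arm, for up to 3 called members per comparison and the 3 with the largest difference in Eff against Ctrl. Of the other pathway genes, up to 3 called per list and comparison are named. Stard4, Sqle and Fads1 are shown in every sample outside this rule and were chosen after their values were seen.

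Alternatives were pseudocounts of 0.5 and 5, a minimum mean above 0 or at 50, a fit of just the compared groups, the replicate number as a block, equal totals, quantile normalization, edgeR (4.0.16) with TMM and DESeq2 (1.42.0) on the recovered reads, and leaving out each sample. EdgeR with the block was added after the values had been seen. Promoter windows came from RefSeq (GRCm38.p6).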

Additional observations from a re-analysis of the deposited data

Results flagged for a closer look

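In 5 of the 34 genes the samples of a comparison all went one way in one setting and all the other way in the other. How many of all genes did so was not counted, and nothing is read from the 5. Separate groups were common, since 30.9% of all genes had both LPS samples under both Ctrl samples and 17.8% both Eff samples. For Insig1 and Tm7sf2 both LPS samples lay under both Ctrl samples while both LPSEff samples lay above both Eff samples. The interaction was 1.18 (SE 0.27) for Insig1 and 0.65 (SE 0.37) for Tm7sf2. At equal totals the second difference of Insig1 was -0.17 and that of Tm7sf2 was -0.08, so that the directions were no longer opposite.

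For Acss2, Fasn and Elovl6 both Eff samples lay under both Ctrl samples while both LPSEff samples lay above both LPS samples. The interaction was 1.39 (SE 0.47) for Acss2, 1.09 (SE 0.37) for Fasn and 1.24 (SE 0.49) for Elovl6. Adjusted over all genes, the limma p was 0.9999 for each of the 5 genes. For all 5 the interaction contains the difference between Eff and Ctrl, by which Insig1 and others of the list became known, so that its size and sign are a description. Groups of 2 samples allow no search for single outlying samples.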

How the results depend on the processing

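The fit had 2 samples per group and 4 residual degrees of freedom. Of 21 called values, 18 of 231 recomputations lost the call under the other settings and 56 of 168 without a sample, and 0 reversed. Among the 149 values not called, 128 of 1595 passed the threshold under another setting, and the sign changed in 20 of these recomputations and in 61 of 1192 without a sample. The median of the 34 genes ranged over the other settings from -1.22 to -0.75 in LPS against Ctrl, -0.75 to -0.26 in LPSEff against Eff, -0.34 to -0.22 in LPSEff against LPS, -0.93 to -0.88 in Eff against Ctrl and 0.67 to 0.79 for the interaction. Without a sample it ranged from -1.05 to -0.51, -0.39 to -0.16, -0.56 to 0.07, -1.02 to -0.81 and 0.41 to 0.93 in the same order. The cause of the changes below was not tested, except that an added or removed sample or term changes the residual degrees of freedom.

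Of the 34 genes, equal totals called 25 in LPS against Ctrl, 15 in LPSEff against Eff and 0 in LPSEff against LPS. In LPSEff against Eff, quantile normalization called 9, edgeR 8 and a fit of only the groups compared 3. In LPSEff against LPS, 0 were called with a pseudocount of 0.5, with genes of a mean above 0, with only the groups compared, with quantile normalization and with edgeR, and 2 with DESeq2. In Eff against Ctrl, only the groups compared gave 1, edgeR 1 and DESeq2 8. Leaving out a sample gave 8 to 20 calls in LPS against Ctrl, 0 to 6 in LPSEff against Eff, 0 in LPSEff against LPS, 0 to 3 in Eff against Ctrl and 0 for the interaction. Without 1 sample, its group is 1 sample that is assumed to vary like the others.

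Over all genes, the 3910, 3213, 126 and 41 calls in LPS against Ctrl, LPSEff against Eff, LPSEff against LPS and Eff against Ctrl were 3991, 3509, 126 and 14 with edgeR, 3965, 3518, 368 and 207 with DESeq2, and 6717, 6033, 1137 and 436 with the replicate block. Equal totals gave 5735 in LPS against Ctrl and 5578 in LPSEff against Eff. In LPSEff against Eff, quantile normalization gave 3740 and only the groups compared gave 2959. With only the groups compared there were 66 in LPSEff against LPS and 9 in Eff against Ctrl. For Eff against Ctrl, genes with a mean above 0 gave 79 and those of at least 50 gave 20.

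Neither the labels nor the methods say that samples with the same replicate number belong together, and each comparison has only 2 such pairs. Their deviations from the group means correlated across 16309 genes, which are not independent replicates, with r from 0.404 to 0.595. With the replicate number as a block, limma called 24 of the 34 genes in LPS against Ctrl (23 lower), 13 in LPSEff against Eff (10 lower), 4 in LPSEff against LPS (3 lower), 15 in Eff against Ctrl (all lower) and 0 for the interaction. EdgeR with the block called 24, 12, 4 and 19 in the same order of comparisons. Of all 16309 genes it called 6663, 6314, 1233 and 429.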
